A study of Homo sapiens with 17 samples.

Results

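The 22 autosomes were divided into bins of 100 kb, and each bin was placed in compartment A or B from the contacts it made along its own chromosome in a Hi-C library of primed PSCs. Hi-C joins DNA ends that lie close together in fixed nuclei, so a bin's row of contacts shows which parts of its chromosome it met. Contacts were balanced and divided by the mean for their distance, and the first principal component (PC1) of the correlation matrix of each chromosome was oriented so that higher values went with more protein-coding gene starts. Bins with a PC1 above 0 are called A and those below 0 are called B. Of 28760 bins, 25197 (87.6%) had enough contacts to be placed. Compartment A held 13123 of them (52.1%, 95% Wilson interval 51.5 to 52.7%) and compartment B held 12074.

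The study compared naive and primed PSCs of H9 NK2, a line of human embryonic stem cells. Primed PSCs were grown in TeSR-E8 medium on Vitronectin, and naive PSCs in t2iL+PKCi medium on Matrigel, both without feeder cells and in low oxygen. The values below come from 1 Hi-C library of primed PSCs, from 3 primed and 2 naive CUT&RUN libraries of H3K4me1, and from 1 list of Promoter Capture Hi-C (PCHi-C) interactions that combines 2 primed replicates. The Hi-C file held 52056334 contacts, of which 42641237 joined bins of the same autosome and 6706606 joined different autosomes. The H3K4me1 libraries held 7.89 to 26.6 M reads in primed PSCs, and 6.74 and 21.8 M in naive PSCs, and their levels are given as log2 RPM, reads per M reads of the library in a tile of 500 bp. All cells come from 1 line, and the compartments from a single library, so intervals on contacts cover counting error only.

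Interphase chromosomes fold so that active and inactive chromatin keep apart. Compartment A is known as the gene-rich, early replicating and transcribed part, and compartment B as the gene-poor part that often lies at the nuclear lamina. H3K4me1, the mono-methylation of lysine 4 of histone H3, marks enhancers and the flanks of promoters, and CUT&RUN maps it by releasing DNA beside the bound antibody. PCHi-C enriches a Hi-C library for fragments that carry a promoter (baits) and finds the fragments they contact (partners).

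As landmarks of the signal, 2 tiles are shown, each the highest in H3K4me1 of its 100 kb bin over the mean of the primed libraries. The first lies in the bin of *DUSP6*, the listed gene in compartment B with the highest bin level, and the second in the bin of *DNMT3B*, the listed gene in compartment A with the highest bin level (sequences from GRCh38, plus strand, central 300 bases of the tile, with CG dinucleotides in capitals).
DUSP6 bin, chr12:89357101-89357400: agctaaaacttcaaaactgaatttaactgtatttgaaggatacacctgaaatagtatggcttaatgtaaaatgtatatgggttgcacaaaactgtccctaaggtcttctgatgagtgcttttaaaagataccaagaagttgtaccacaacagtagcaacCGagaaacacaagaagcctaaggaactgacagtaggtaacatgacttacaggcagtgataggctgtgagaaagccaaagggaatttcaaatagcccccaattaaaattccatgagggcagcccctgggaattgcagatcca
DNMT3B bin, chr20:32752101-32752400: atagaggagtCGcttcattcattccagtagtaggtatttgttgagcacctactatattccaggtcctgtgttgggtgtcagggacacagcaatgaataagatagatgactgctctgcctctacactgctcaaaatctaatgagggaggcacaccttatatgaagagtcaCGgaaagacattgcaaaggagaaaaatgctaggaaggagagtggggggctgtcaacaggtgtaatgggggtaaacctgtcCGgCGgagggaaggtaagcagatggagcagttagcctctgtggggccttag
The *DUSP6* tile stood 4749 bases upstream of the gene start, within a long non-coding RNA gene (ENSG00000286608) and outside its exons, and its 300 bases held 1 CG and 40% G or C. The *DNMT3B* tile stood 10135 bases upstream of the gene start, outside annotated genes, and its bases held 4 CG and 48.3% G or C. The *DUSP6* tile had a log2 RPM of 2.35, 1.479 and 1.74 in the primed libraries and of -2.12 and -1.75 in the naive libraries. All of the primed values lay above both naive values there. The *DNMT3B* tile had 2.58, 2.06 and 2.46 in primed and 1.23 and 1.05 in naive PSCs, again without overlap. Both tiles were chosen for their primed level, so these values describe them and test nothing.

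The labels were first set against markers of either state, read as the mean log2 RPM of H3K4me1 within 5 kb of the gene start. All 7 naive markers, among them *DPPA5*, *KLF17* and *SUSD2*, were lower in each primed library than in each naive library. Of 6 primed markers, 4 were higher in each primed library, 1 (*ZIC2*, a neural transcription factor) was lower in each, and *OTX2*, a regulator of the primed state, overlapped. The *ZIC2* tiles read -0.77, -1.25 and -0.71 in the primed and -0.12 and -0.48 in the naive libraries.

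The compartments followed gene content, which their orientation uses, and base composition, which it does not. Bins in A held 1.01 gene starts on average and those in B 0.298, and 78.7% of the gene starts in placed bins lay in A. G and C made up 43.5% ± 4.62 of the bases of A bins and 37.6% ± 2.66 of those of B bins (SD over bins). Across the 25197 bins Spearman's rho of PC1 was 0.693 with GC content and -0.326 with the number of HindIII sites, the cut sites on which the contacts depend. The division was not sharp everywhere, since 3357 bins (13.3%) had an absolute PC1 under 0.25. PC1 held a median of 2.48% of the variance over the autosomes, from 0.940% on chromosome 4 to 11.1% on chromosome 21. Before balancing, the median A bin had 1872 contacts and the median B bin 3131. Without balancing, PC1 kept a correlation of 0.886 with the reported one but only 26.0% of the bins came out above 0, so the place of the zero line depends on balancing more than the order of the bins does.

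Runs of bins of one kind made 1504 A domains with a median of 0.2 Mb and 1142 B domains with a median of 0.3 Mb. The longest A domain spanned 19.5 Mb of chromosome 1 (chr1:28600001-48100000) and held 266 gene starts, among them *HDAC1*, which encodes a histone deacetylase, and *KLF17*, a naive marker. The next spanned 15.1 Mb of chromosome 10 (chr10:117100001-132200000) with 83 gene starts including *FGFR2* and *EMX2*, and 11.1 Mb of chromosome 5 (chr5:71500001-82600000) with 69 including *OTP*. The longest B domains spanned 18 Mb (chr1:65200001-83200000, 58 gene starts, *NEGR1*), 16.7 Mb (chr1:183600001-200300000, 49 gene starts, *PTPRC*) and 14 Mb (chr13:59700001-73700000, 14 gene starts, *PCDH9*). Primed H3K4me1 averaged -2.21, -2.39 and -2.31 log2 RPM over the 3 A domains and -2.71, -2.82 and -2.93 over the 3 B domains. No B domain of these reached the level of an A domain.

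Chromosomes differed in how much of their length fell in A. The share ran from 13.1% on chromosome 21 to 89.0% on chromosome 15, with a median of 51.6% over the 22 autosomes. On 19 of them the first component was also, of the first 3, the one most related to gene starts. Chromosomes 15, 19 and 21 were the exceptions, and on chromosomes 15 and 21 another component followed gene starts far more closely, with a rho of 0.460 and 0.468 against 0.223 and 0.247 for PC1. Results are therefore also given without these 2 chromosomes where that changes them.

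**Figure D1:**
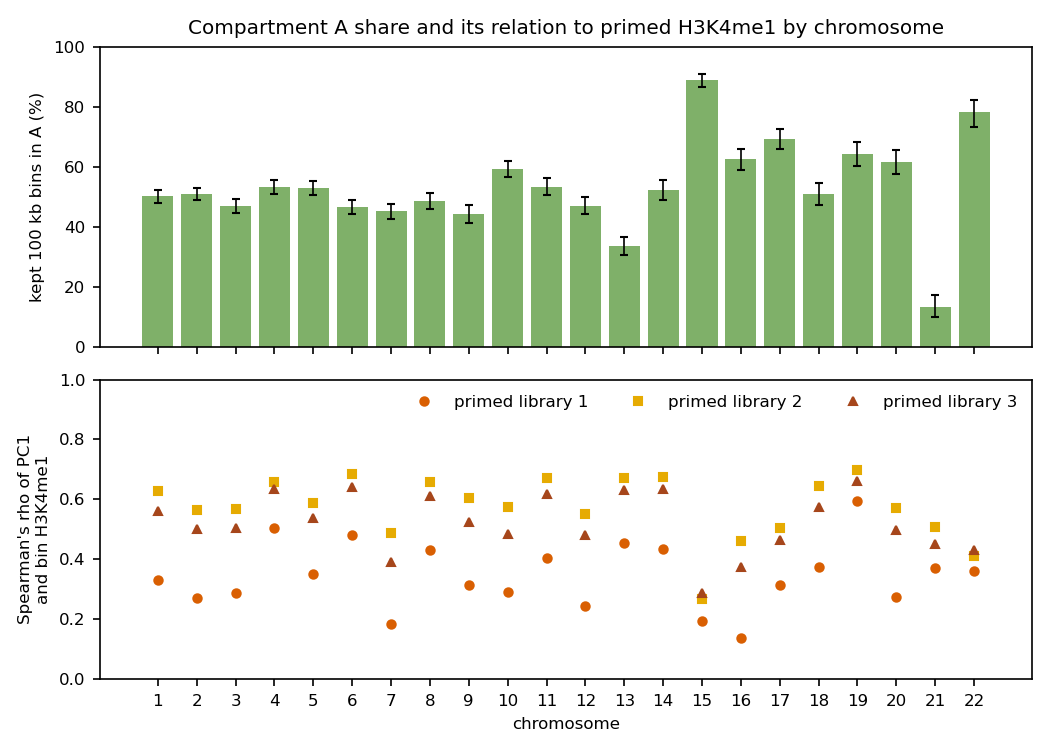
Upper panel, percentage of placed 100 kb bins in compartment A on each autosome with 95% Wilson intervals. Lower panel, Spearman's rho across the bins of each autosome between PC1 and the bin's mean log2 RPM of H3K4me1, for each primed library. Chromosomes 15 and 21 stand at 89.0% and 13.1%, and every rho is above 0.

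Contacts between chromosomes took no part in the calls and allowed the division to be read a second time. Bins of the same compartment on different chromosomes met more often than their totals gave, with an observed over expected ratio of 1.18 for A with A and 1.21 for B with B, against 0.803 for A with B. The ratio of same to different was 1.484 (95% counting interval 1.482 to 1.487), and it was 1.53 without chromosomes 15 and 21 and 1.94 in the outer terciles of PC1. By quintiles of PC1, the highest quintile met itself at 1.55 and the lowest quintile itself at 1.45, whereas the highest met the lowest at 0.568. The middle quintile met every other near 1, from 0.945 to 1.02.

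Bin by bin, the share of trans-contacts that went to A bins rose with PC1, with a rho of 0.895 over the 25161 bins with at least 50 trans-contacts. A bins sent 61.7% and B bins 41.2% of their trans-contacts to A. This order held on 22 of 22 chromosomes, and in 90.6% of the bins the share lay on the same side of its chromosome's mean as PC1 of 0. The relation was loosest on chromosome 15 (rho 0.495) and tightest on chromosome 3 (rho 0.946). These bins share 1 library and its depth, so the correlation is a description.

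**Figure D2:**
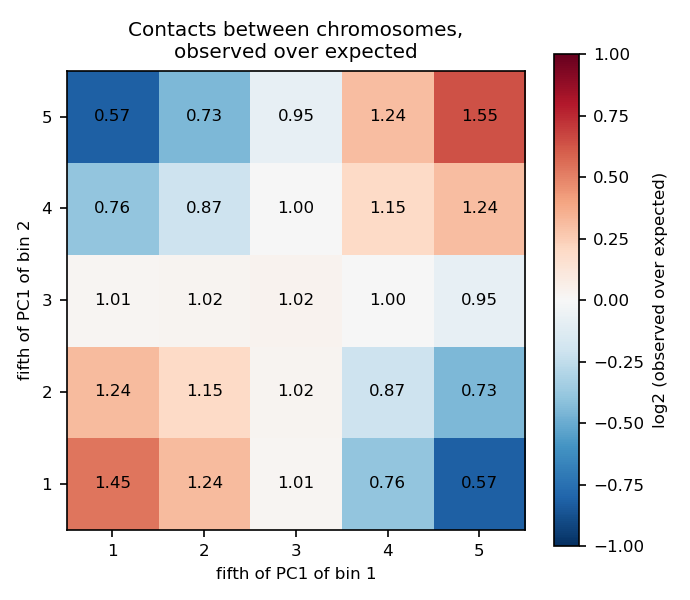
Observed over expected contacts between bins of different autosomes by quintile of PC1 of either bin (1 lowest, 5 highest), expected from bin totals within each pair of chromosomes, with colour on a log2 scale. Values are above 1 near both ends of the diagonal (1.45 and 1.55) and lowest, 0.568, between the extreme quintiles.

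H3K4me1 was higher in A than in B in every primed library. The mean log2 RPM of the tiles was -2.32, -2.12 and -2.45 over A bins and -2.63, -2.58 and -3.08 over B bins in primed libraries 1, 2 and 3. The differences were thus 0.31, 0.46 and 0.63, with a mean of 0.47 ± 0.16 (SD, n = 3). Within each library A stood above B, and the difference exceeded 0 by more than its spread between libraries. An empty tile is listed at a level that falls with depth (15.3 to 51.9% of tiles were empty in the primed libraries), so depth enters this log difference. Library 2 had fewer reads than library 1 (7.89 against 8.85 M), but fewer empty tiles (42.0 against 51.9%) and a larger difference. Library 3 had the fewest empty tiles (15.3%) and the largest difference. The part of depth and of empty tiles in the spread between libraries was not tested. On the linear scale, A over B was 1.56, 1.87 and 1.58, a mean of 1.67 ± 0.17 (SD, n = 3). With a pseudocount of 0.5 RPM added to the linear values, the log2 difference was 0.23. An exact test of the sign of 3 values cannot pass, and no test was made of these differences.

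The level climbed along PC1 and flattened at its upper end. From the lowest to the highest decile of PC1, primed RPM per kb ran from 0.314 to 0.667, from 0.262 to 0.686 and from 0.314 to 0.656 in libraries 1 to 3. In all of these libraries the highest value stood in decile 9 (0.706, 0.706 and 0.680), not in the last. The naive libraries, read on the same primed PC1, rose up to the last decile, from 0.256 to 0.798 and from 0.203 to 0.849. Spearman's rho between PC1 and bin level was 0.33, 0.58 and 0.53 in the primed libraries, with a mean of 0.48 ± 0.13 (SD, n = 3) over 25197 bins that share sequence composition and the Hi-C library.

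**Figure D3:**
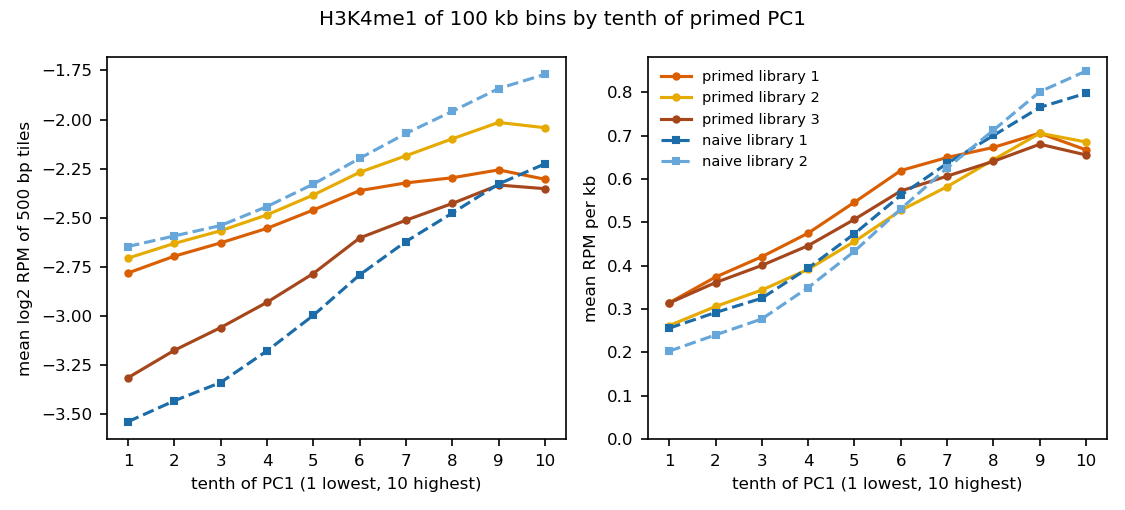
H3K4me1 of 100 kb bins by decile of primed PC1, as the mean log2 RPM of 500 bp tiles (left) and as mean RPM per kb (right), with a line for each library. Primed libraries peak in decile 9, at 0.680 to 0.706 RPM per kb, and naive libraries reach 0.798 and 0.849 in the last.

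Each chromosome showed the difference in each primed library, 22 of 22 in all of them. The lowest values were 0.16 (chromosome 21), 0.36 and 0.42 (both chromosome 7) in libraries 1, 2 and 3. Chromosome 19 had the highest in each, 0.52, 0.74 and 0.94. The study's methods describe an altered copy number of chromosome 19 in both states, and RPM values are not corrected for copy number. Its part in the difference was not tested. The mean rho was lowest on chromosome 15 (0.25) and highest on chromosome 19 (0.651).

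The difference was also present away from gene starts. Bins without any protein-coding gene start, 6248 in A and 9676 in B, differed by 0.32, 0.43 and 0.61, a mean of 0.45 ± 0.15 (SD, n = 3), close to the 0.47 over all bins. Bins with 1 gene start differed by 0.33 ± 0.12 and those with 2 or 3 by 0.37 ± 0.14. The widest gap, 0.71 ± 0.21, was between the 750 A bins and the 118 B bins with 4 or more gene starts. Dense bins in B read -2.82, -2.61 and -3.22, lower than B bins with fewer gene starts but at least 1 in every primed library. Dense bins in A read -2.33, -1.90 and -2.30, the highest of the A classes in libraries 2 and 3 but not in library 1.

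Base composition moved with both measures, with a rho of 0.534 between GC content and the mean primed level. Within quintiles of GC content the A minus B difference was 0.26 ± 0.11, 0.21 ± 0.08, 0.21 ± 0.06, 0.22 ± 0.06 and 0.38 ± 0.07 from the lowest to the highest quintile (SD, n = 3). The direction was thus the same in each quintile, and in 4 of them the size was under 0.27. The lowest quintile held 365 A and 4675 B bins and the highest 4774 A and 265 B bins, so these comparisons rest on unequal groups.

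The same compartments were then read in naive PSCs, to ask whether the primed division fits H3K4me1 of one state more than the other. The A minus B difference in log2 RPM was 0.83 and 0.57 in the naive libraries, on either side of the highest primed value of 0.63. The mean difference between states was 0.23 (two-sided exact permutation test over 5 libraries, p = 0.3). In bins without gene starts it was 0.05 (exact p = 0.8), and for rho it was 0.08 (exact p = 0.7). The linear ratio of A over B was 2.04 and 2.49 in naive against 1.56, 1.87 and 1.58 in primed libraries, without overlap (exact p = 0.1). Adjusted over these 4 tests by the Benjamini-Hochberg method, the p-values were 0.4 to 0.8. No test passed, and with 2 against 3 libraries the smallest p is 0.1.

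At the edges between compartments H3K4me1 rose from B to A, in part in 1 step and in part over several bins on both sides. At 241 edges both sides held at least 500 kb of one compartment. From the last B bin to the first A bin the level stepped up by 0.24, 0.21 and 0.30 log2 RPM in primed libraries 1, 2 and 3. From 450 kb inside B to 450 kb inside A it went from -2.66, -2.56 and -3.06 to -2.08, -2.02 and -2.24. Partner fragments went from 1.57 per bin at 450 kb inside B to 2.27 in the last B bin and 3.58 in the first A bin. Baited fragments went from 0.378 to 0.510 and 0.755 at the same places, as gene starts did from 0.560 to 0.656 and 1.12.

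**Figure D4:**
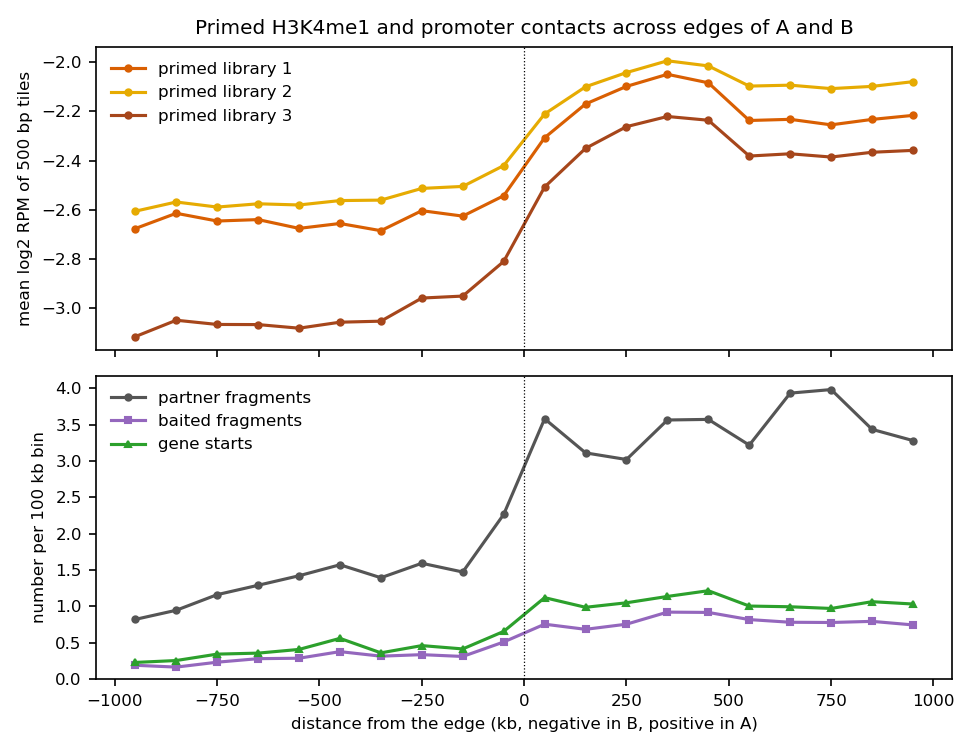
Upper panel, mean log2 RPM of H3K4me1 in each primed library by distance from 241 edges of A and B. Lower panel, partner fragments, baited fragments and gene starts per 100 kb bin. Beyond 500 kb fewer edges contribute (153 to 223), which is where the curves of H3K4me1 in A step down, and partner fragments go from 2.27 to 3.58 per bin across the edge.

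Promoter interactions were denser in A. Baited fragments with at least 1 interaction numbered 0.708 per bin in A and 0.252 in B, a ratio of 2.81 (95% counting interval 2.70 to 2.93). Baits are chosen at promoters, and gene starts oriented PC1, so this ratio is no independent finding. By gene starts in the bin the bait ratio was 2.38 (2.17 to 2.61) with none, 1.07 (1.00 to 1.15) with 1, 1.10 (1.02 to 1.19) with 2 or 3 and 1.06 (0.931 to 1.21) with 4 or more. Partner fragments without a bait numbered 2.71 per bin in A and 1.21 in B, a ratio of 2.24 (2.20 to 2.28). In bins without gene starts the partner ratio was 2.50 (2.44 to 2.56), and it was 1.44 with 1 gene start and 1.10 and 1.13 with 2 or 3 and with 4 or more. Partners thus differed between compartments mainly where no gene started in the bin. Partners are found only from baits, which were denser in A, so the partner ratio is not independent of the bait ratio.

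Baits in both compartments had the same median number of interactions. The median bait had 4 interactions in A and 4 in B, with quartiles of 2 and 9 in both. Per bait present in a quintile of PC1, partner fragments fell from 4.73 in the lowest to 3.58 in the highest quintile. Interactions of B baits reached farther, with a median of 426 kb against 282 kb. Of the interactions of B baits 13.1% (12.7 to 13.5%) spanned over 1 Mb, against 4.99% (4.83 to 5.15%) of those of A baits. Over 5 Mb the order turned, with 0.280% (0.219 to 0.358%) in B and 0.631% (0.575 to 0.692%) in A.

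Interactions kept within compartments. Of 77912 cis-interactions between different placed bins, 89.2% (Wilson 89.0 to 89.4%) joined bins of one compartment, against 85.0% of all pairs at the same distances from baited bins. From 1 to 5 Mb the share was 80.4% (79.3 to 81.4%) of 5388, against 71.2%. Baits in B met B at this range in 85.5% of cases, against 73.0% of pairs, and baits in A met A in 75.3%, against 69.5%. With compartments called in bins of 1 Mb the excess at 1 to 5 Mb shrank from 9.16 to 2.93 percentage points.

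Over 5 Mb 84.2% (80.3 to 87.5%) of 387 interactions stayed within one compartment, against 51.9% of pairs, with 303 joining A with A, 61 A with B and 23 B with B. Baits in A met A in 88.3% (84.5 to 91.3%) of them. For the 44 interactions from B baits the share that met B, 52.3% (37.9 to 66.2%), did not differ from the 53.5% of pairs beyond its interval. The excess over 5 Mb was 11.8 percentage points in bins of 1 Mb, 16.8 in bins of 500 kb and 14.1 without balancing, against 32.4 as reported. By quintile of PC1, the middle one held most bait ends at 1 to 5 Mb, 31.4%, whereas the highest held most of those up to 1 Mb, 34.9%. Baited fragments themselves numbered 753, 1500, 2429, 3174 and 4482 from the lowest to the highest quintile. The highest quintile thus also held most baits, and its share up to 1 Mb is no sign of a preference.

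H3K4me1 of the interacting fragments followed their compartment too. Baited fragments averaged -1.65 ± 0.12 log2 RPM in A and -2.04 ± 0.19 in B, and partner fragments -2.16 ± 0.11 and -2.46 ± 0.18 (SD, n = 3). Relative to all bins of its compartment, a partner fragment stood higher by 0.14 ± 0.06 in A and by 0.30 ± 0.11 in B. The excess in B was the larger one in each primed library (0.30, 0.19 and 0.40 against 0.17, 0.07 and 0.18). Bins with a partner exceeded bins without one by only 0.07 ± 0.02 in A and 0.11 ± 0.05 in B.

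Gene groups were placed by the bin of each gene start, beside the 78.7% of all 16862 placed protein-coding genes that lay in A and their median bin level of -2.38. The core pluripotency genes lay in A in 9 of 10 cases and had a median bin level of -1.62. *SOX2*, a transcription factor of pluripotent and neural cells, had a PC1 of 0.476 and a bin level of -0.31, -1.04 and -0.69. *DNMT3B*, a de novo DNA methyltransferase, had the highest PC1 of the list (1.52) and the highest level (-0.40, -0.42 and -0.49). *L1TD1*, which encodes an RNA-binding protein, was the member in B, at a PC1 of -0.025, close to the line. *POU5F1*, *PRDM14*, *TDGF1* and *UTF1* lay in bins with too few contacts and could not be placed.

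Of 16 naive markers 13 were in A, with a median level of -2.44, and of 12 primed markers 9 were in A, with a median of -1.50. *TFCP2L1*, a naive transcription factor, had the highest PC1 of its list (1.47) and levels of -2.88, -2.29 and -3.00, each below the median of all genes in that library (-2.45, -2.18 and -2.51). *KLF17* stood at a PC1 of 1.25 and levels of -2.78, -2.54 and -2.93. *ZIC2* and *ZIC5* share a bin at a PC1 of 0.989 and levels of -0.56, -0.73 and -0.71. *FGF2*, the growth factor that maintains primed cells, had a PC1 of 1.10 and levels of -1.06, -1.27 and -1.26. *CYTL1*, which encodes a secreted cytokine-like protein, had the highest PC1 of the primed markers (1.77) but levels of -2.65, -2.32 and -2.81, each below the median of all genes. *KLF4* (-0.148), *KLF5* (-0.019) and *NLRP7* (-0.274) were the naive markers in B.

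Some listed genes sat in B with high H3K4me1, and those from *DUSP6* to *CDH2* here were chosen for that level. *DUSP6*, a phosphatase that restrains ERK signalling and a primed marker, had a PC1 of -0.429, and its bin read -0.96, -1.49 and -1.23. That mean of -1.22 was above 99.3% of the B bins. *L1TD1* followed at -1.63 (97.9%), then *ZNF682* and *ZNF90*, which share a bin deep in B (PC1 -2.53) at -1.69 (97.6%). *CDH2*, which encodes N-cadherin, came next at a PC1 of -0.323 and -1.87 (96.2%). *TCF4*, a transcription factor and a primed marker, was also in B, at a PC1 of -0.228, with lower levels of -2.66, -2.39 and -2.78 (70.1%).

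Other genes with a role in pluripotency spread over compartment A. *REST*, which encodes a repressor of neuronal genes, stood far inside it, at a PC1 of 2.51 with levels of -2.37, -2.25 and -2.38. *DPPA4*, a chromatin-associated pluripotency factor, stood near the line at 0.222 but had higher levels, -1.03, -1.53 and -1.39. *TFAP2C*, a transcription factor of naive cells and trophoblast, was at 0.130 with -1.83, -1.60 and -1.85. *TET1*, which oxidises methylated cytosine, and *GDF3*, a growth factor, were at 0.873 and 0.770 with means of -1.95 and -1.91. *LIN28B*, which encodes an RNA-binding protein, was at 0.741 with a mean of -1.74, and *IL6*, a cytokine gene, at 0.092 with -2.31. These genes are examples, and no relation was drawn from them.

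Of the developmental factors, 25 of 29 placed genes lay in A, with a median PC1 of 0.867 and a median level of -1.91. *OTP*, a homeobox factor of the hypothalamus, had the highest PC1 (2.21) within its long A domain, and its bin held 14 partner fragments. *EN2* (PC1 1.08), *MNX1* (1.01) and *SHH* (0.825) on chromosome 7 were all in A, with 14, 11 and 5 partners in their bins. *SHH*, a secreted morphogen, had a low level of -2.69, -2.25 and -2.93, and *EN2* a higher one of -1.82, -1.44 and -1.66. *TBX5*, *TBX3* and *LHX5* on chromosome 12 had PC1 values of 1.07, 0.790 and 0.819 with 12, 11 and 8 partners. *FOXA1* (-1.23), *LHX9* (-1.003), *PAX9* (-0.268) and *PAX1* (-0.148) were in B.

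All 39 *HOX* genes, which set position along the body axis, were in A at intermediate PC1, from 0.343 to 1.13. Their median bin level over genes, -1.08, was the highest of the lists, with levels from -2.63 to -0.58. The clusters read -1.31, -1.19 and -1.37 (*HOXA*), -1.23, -1.20 and -1.29 (*HOXB*), -1.40, -1.30 and -1.61 (*HOXC*), and -1.14, -1.30 and -1.47 (*HOXD*) in primed libraries 1 to 3. The 39 genes share 10 bins, so they are not 39 separate readings. The median counts a shared bin once for each of its genes, and the lists were not ranked over bins.

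The clustered protocadherins, neuronal adhesion proteins, all lay in A (53 of 53), with a median PC1 of 1.29 and a median level over genes of -2.98, with 6.28% of A bins at or under it. The *PCDHA* genes read -2.77, -2.59 and -3.23, the *PCDHB* genes -3.03, -2.81 and -3.44 and the *PCDHG* genes -3.08, -2.67 and -3.18 by their medians, over 8 bins of chromosome 5. These medians count genes that share bins. Of the 8 bins, 5 lay below the mean of B bins in every primed library and 2 lay above the mean of A bins in every one. The latter were the bin of *PCDHAC1* and *PCDHAC2*, at -1.51, -1.68 and -1.81, and the bin of *PCDHGC3* and 8 other *PCDHG* genes, at -2.05, -1.91 and -2.15. The bin of *PCDHB1* and *PCDHB2* lay between, at -2.33, -2.245 and -2.49, and *PCDHB12* had the lowest PC1 (1.05). Keratins, filament proteins of epithelia, likewise lay in A (54 of 54, sharing 16 bins) with a low median over genes of -2.66. *KRT23* was nearest to the line, at a PC1 of 0.061, and *KRT77* stood in the bin highest in PC1, at 1.38.

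The long neuronal adhesion and receptor genes lay in B in 19 of 20 cases, with a median level of -2.82. *DSCAM* on chromosome 21 had the lowest PC1 (-1.45), and its bin read -3.30, -3.00 and -4.14, with 1.18% of B bins at or under its mean. Its place depends on the component. With the component most related to gene starts, 2 of the 20 genes came out in A. No other gene of the list lies on a chromosome where that component was not PC1.

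Olfactory receptors lay in A in 87 of 379 cases, in 154 bins, and had the lowest median level over genes of the lists, -3.07. Chromosome 11 held 157 of the 292 in B. Among the listed genes in A, those named here had the lowest levels, and all are olfactory receptors of chromosome 11 close to the line. *OR4A15* and *OR4A16* shared a bin at a PC1 of 0.100 and -3.30, -3.06 and -4.25, and *OR5D16*, *OR5D18* and *OR5L1* one at 0.073 and -3.28, -3.02 and -4.18. Receptors of chromosome 6, 19 in all, were in A. *OR10H2* had the lowest PC1 of the receptors (-2.32) and *OR2AE1* the highest (1.89).

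Zinc finger genes of chromosome 19 lay in A in 64 of 249 cases, with a median PC1 of -0.963 and a median level of -2.81. *ZNF569* had the lowest PC1, -2.61, and *ZNF114* the highest, 0.707. Their place depends on the component, since 56.6% came out in A with the component most related to gene starts. Of 87 keratin-associated protein genes, which share 16 bins, 33 lay in A, but 43 of the 54 in B are on chromosome 21. Without that chromosome and chromosome 15 the count was 27 of 38, and in bins of 500 kb 100% came out in A. Ribosomal protein genes, used in every cell, lay in A in 65 of 68 cases with a median level of -2.23. *RPL10L*, a testis-expressed copy, was deepest in B, at a PC1 of -1.91, and *RPL30* highest in A, at 2.07. Histone genes of chromosome 6 were in A in all 32 placed cases, with a median over genes of -1.58. These 32 genes share 4 bins, with levels from -2.83 to -1.44, so they are not separate readings. The other 23 of the 55 lay in 2 adjacent bins that were left out.

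**Figure D5:**
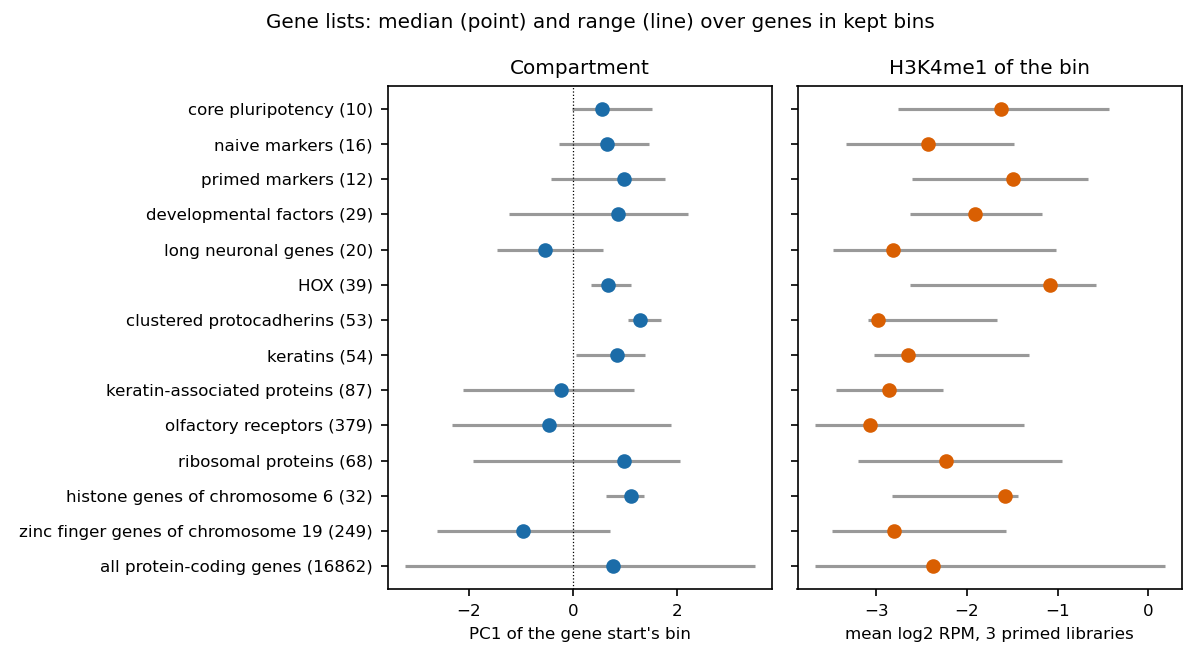
Median (point) and range (line) over the genes of each list, with the number of placed genes in brackets, of PC1 (left) and of the bin's mean log2 RPM of H3K4me1 over the 3 primed libraries (right). Clustered protocadherins combine a median PC1 of 1.29 with a level of -2.98, and HOX genes a median PC1 of 0.672 with -1.08.

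The counts of the lists depended on how PC1 was computed. Without balancing, 50.6% of all gene starts came out in A, and the core pluripotency genes fell from 9 to 3 of 10, the primed markers from 9 to 5 of 12, *HOX* genes from 39 to 28 and keratins from 54 to 29. The clustered protocadherins stayed at 53 of 53 and the long neuronal genes went to 0 of 20. From observed/expected minus 1, 81.7% of all gene starts came out in A, yet *HOX* genes came to 30 of 39 and keratins to 34 of 54. Core pluripotency genes came to 10 of 10 there, and the clustered protocadherins again to 53 of 53.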

How the data were processed

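Hi-C, PCHi-C and H3K4me1 CUT&RUN data of primed PSCs were used, with the naive H3K4me1 libraries for comparison; naive Hi-C and PCHi-C and the ChIP-seq libraries were not used here. The authors mapped Hi-C and PCHi-C read pairs on GRCh38 with HiCUP and deposited counts of contacts per pair of 100 kb bins for 1 Hi-C library. The authors combined 2 PCHi-C replicates in CHiCAGO and deposited interactions with a score of at least 5, a log-transformed weighted p-value, beside rounded combined reads. For H3K4me1 they used Trim Galore 0.5.0 and Bowtie2 2.3.2 (submitters' processing notes), extended reads to 300 bp and deposited log2 RPM per 500 bp tile, with 0.9 reads in place of 0 for tiles without reads. Tile ends matched GRCh38 on all 22 autosomes.

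Bins whose log contacts fell more than 3 scaled median absolute deviations under the median of their chromosome were left out; a limit over all chromosomes, tried first, removed most of some short ones. Counts were balanced in 60 iterations, pairs at least 2 bins apart entered, and observed/expected was capped at its 99.9th percentile. PC1 was scaled to a root mean square of 1. Gene starts came from GENCODE release 44. Trans-contacts were expected from bin totals within pairs of chromosomes. A bin's H3K4me1 is the mean over its tiles. Exact permutation tests counted absolute differences over all splits, adjusted by the Benjamini-Hochberg method, and gene lists were described by counts. The caller was tested on simulated data. The study's methods call the CUT&RUN libraries biological replicates without saying whether they came from separate cultures, so p-values measure the spread between these libraries. Named genes come from the members of each list with the highest and lowest PC1, genes the paper names, listed B genes highest and A genes lowest in H3K4me1, and examples for each list chosen after their values were seen; a few genes are not reported here. The compartments, lists and members were chosen with earlier results of these data known. Alternatives covered bin size, balancing, component, arm, filters, H3K4me1 scale, score, reads and libraries left out. Scripts ran on SciPy 1.17.1, matplotlib 3.10.9, NumPy 2.4.6 and pandas 2.3.3 under Python 3.11.15.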

Additional observations from a re-analysis of the deposited data

How the results depend on the processing

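Every ratio and difference named here kept its direction under each setting tried. The share of bins in A was 54.7%, 58.1% and 55.3% in bins of 200 kb, 500 kb and 1 Mb, 26.0% without balancing, 51.3% with the best of 3 components, 49.5% per arm, 56.2% from observed/expected minus 1, 48.7% without a coverage filter, 54.1% with a stricter one and 51.4% without chromosomes 15 and 21. In the same order, the ratio of trans-contacts within against between compartments was 1.47, 1.43, 1.41, 1.29, 1.51, 1.42, 1.45, 1.44, 1.43 and 1.53, and the share of interactions within one compartment was 90.3%, 92.0%, 92.8%, 88.1%, 88.4%, 88.6%, 88.0%, 88.5%, 88.8% and 88.9%. The trans ratio was 1.94 in the outer terciles of PC1 and 1.61 from balanced contacts. The within-compartment share was 88.8% for scores from 10 upwards and 89.5% with 10 reads or more. The bait ratio was 2.61 and 2.36 in bins of 500 kb and 1 Mb, 2.39 without balancing, 2.59 per arm, 2.64 without a coverage filter and 3.06 for scores from 10 upwards. The partner ratio was 2.16 and 2.00 in bins of 500 kb and 1 Mb, 1.72 without balancing, 2.13 per arm, 2.04 from observed/expected minus 1, and 1.95 without and 2.41 with a stricter coverage filter. The cause of these shifts was not tested.

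The A minus B difference in primed H3K4me1 was 0.23 with a pseudocount of 0.5 RPM, and 0.26, 0.21, 0.21 and 0.22 in the first 4 quintiles of GC content. It ran from 0.39 to 0.54 with each primed library left out in turn, and rho from 0.43 to 0.55. The naive minus primed difference ran from 0.10 to 0.36 with each of the 5 libraries left out, and was 0.31 (exact permutation p = 0.5) with the replicate block, the mean over pairs 1 and 2. Deviations of libraries with the same number correlated at -0.28 and 0.37, values that are not independent because the deviations of 2 naive libraries mirror each other. The labels do not say what a shared number marks, so the samples were not treated as pairs. The comparison over 5 Mb with at least 10 reads was not made, as only 4 interactions remained. The omission of chromosomes 15 and 21 and the GC quintiles were chosen after seeing the data.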

Other observations

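Bins that held some contacts but too few to be placed were not gene-poor. These 1692 bins had 1.26 gene starts on average, above the 1.01 of A bins, a GC content of 45.5% and 25.2 HindIII sites, fewer than the 27.3 in A and 32.1 in B. Their H3K4me1 averaged -2.80, -2.47 and -3.38 log2 RPM in primed libraries 1, 2 and 3. These values were lower than the A mean in each library. They were also lower than the B mean in libraries 1 and 3, but not in library 2.

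Of the 556 genes in the 118 B bins with 4 or more gene starts, 30.04% were olfactory receptors, 11.3% zinc finger genes of chromosome 19 and 8.09% keratin-associated protein genes, while 50.5% belonged to none of the lists. Over all placed genes these 3 shares were 2.25%, 1.476% and 0.516%, and in A bins as dense they were 0.767%, 0.870% and 0.844%. The 70 bins with such a gene averaged -2.94, -2.69 and -3.37 log2 RPM in the primed libraries and the other 48 averaged -2.65, -2.51 and -2.99, against -2.33, -1.90 and -2.30 in A bins as dense. The place of the zinc finger and keratin-associated protein genes depends on the component. With the component most related to gene starts, 56.6% and 59.8% of them lay in A, against 25.7% and 37.9% as reported. The dense bins were not counted again with that component.

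The 387 interactions over 5 Mb rested on few places, chosen for description after their values were seen. They used 401 fragments in 192 bins, and 194 of them (50.1%) touched 1 of 10 bins. These included the bins of *ALX4*, *NR2E1*, *NKX2-1*, *NKX2-3*, *PAX6*, *PRDM13* and *OTP*, all encoding developmental regulators, and 1 bin without a gene start on chromosome 16. Of these 10 bins the *PAX6* bin had the highest H3K4me1, a mean of -0.85 log2 RPM. Among the 193 interactions that touched none of the 10 bins, 87.0% stayed within one compartment, against 52.0% of pairs at the same distances. The median such interaction over all 387 had 4 combined reads.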
